A study of Mus musculus with 2 samples.

Results

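The cells described here are stromal cells of the mouse kidney with the highest joint level of Nppc, Gpm6a, Cntn1, Alx1, Smoc2, Heph and Ptger1. They were chosen by a score, computed per cell as the mean over these 7 genes of the natural log of 1 plus the unique molecular identifiers (UMIs, each a tagged transcript) per 10000. The top 10% of the stromal cells by this score were taken. They are 822 of 8215 stromal cells kept in the library labelled sham, which itself held 10812 of the 12103 barcodes of the series. They are called high-score cells below, after the score that defines them, and the other 7393 kept cells served as the comparison. A kept cell had 2000 UMIs or more, no more than 10% of them mitochondrial, at least 3 of Col1a1, Col1a2, Col3a1, Dcn, Pdgfra and Pdgfrb detected, and at most 1 of Pecam1, Ptprc, Epcam, Tyrobp and Umod, which mark other cell types.

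The cells were sorted from kidneys of FVBN mice as positive for the PDGF receptors alpha and beta and their transcripts were counted cell by cell in droplets, from their 3′ ends, after the tissue had been digested with Liberase TL and DNAse. Of the 2 libraries, 1 came from sham-operated mice and 1 from mice with unilateral ureteral obstruction (UUO) for 10 days, according to the labels. The number of animals behind a library, their age and their sex are not given in the labels. Both libraries list an eGFP reporter, which was detected in 92.2% of the high-score cells and 91.5% of the other kept cells. Each group is 1 library, so nothing was tested between groups and no p-value appears. All intervals are 95% intervals and cover counting error only.

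Fibroblasts of the kidney lie between tubules and vessels, build the extracellular matrix and send short-range signals to their neighbours. Nppc encodes C-type natriuretic peptide, a local hormone that acts through the receptor Npr2, a guanylyl cyclase, and is cleared by the receptor Npr3. Gpm6a and Cntn1 encode cell surface proteins best known from neurons, Alx1 a paired-class homeodomain transcription factor of embryonic mesenchyme, and Smoc2 a secreted calcium-binding matrix protein. Heph encodes hephaestin, a ferroxidase of iron export, and Ptger1 the EP1 receptor for prostaglandin E2.

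In the mm10 genome, with GENCODE M21 annotation, all 7 are protein-coding genes. Nppc is at chr1:86666291-86670571 on the minus strand, Gpm6a at chr8:54954843-55060871 on the plus strand and Cntn1 at chr15:92051165-92341967 on the plus strand. Alx1 is at chr10:102998707-103030215 on the minus strand and Smoc2 at chr17:14279506-14404790 on the plus strand. Heph is at chrX:96455359-96574485 on the plus strand, where the pseudogene Rpl17-ps8, which had at most 63.2 UMIs per 1000000 UMIs of a group (CPM), overlaps it on the same strand. Ptger1 is at chr8:83666678-83672753 on the plus strand. Reads of the overlapping pseudogene could in part have been counted for Heph.

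Promoter sequence of Nppc and Gpm6a is shown because Nppc and Gpm6a had the highest and second highest ratio among the 7 genes, and because Alx1 proteins bind motifs built from TAAT. Each sequence is the 250 bases before a transcription start in RefSeq (build GRCm38.p6), in the direction of transcription. For Nppc this is chr1:86670574-86670823 on the minus strand, with the letters TATAAA in capitals, 29 bases before the start. For Gpm6a it is chr8:54954478-54954727 on the plus strand, with TAATTA in capitals, 99 bases before the start. Another Gpm6a promoter, at chr8:54779184-54779433, held no TAATTA and is not printed, so the Gpm6a sequence shown is the one with the motif.
Nppc: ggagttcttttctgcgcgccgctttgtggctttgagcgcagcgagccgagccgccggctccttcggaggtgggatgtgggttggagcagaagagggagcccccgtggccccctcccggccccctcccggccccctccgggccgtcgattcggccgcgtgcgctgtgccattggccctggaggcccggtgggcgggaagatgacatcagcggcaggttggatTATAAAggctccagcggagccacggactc
Gpm6a: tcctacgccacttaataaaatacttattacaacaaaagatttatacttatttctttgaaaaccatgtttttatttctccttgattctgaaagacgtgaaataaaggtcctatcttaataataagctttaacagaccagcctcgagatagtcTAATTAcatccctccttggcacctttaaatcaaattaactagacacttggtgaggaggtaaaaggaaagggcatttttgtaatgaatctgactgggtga
TAATTA reads the same on both strands and was found in 1 of 6 promoters of the 3 genes matched, Nppc, Gpm6a and Cntn1, and in 5.29% of 32851 promoters (250 bases before to 50 after the start). TATAAA, searched on the transcribed strand only and chosen after the sequences were seen, was found in 1 of the 6 and in 8.32% of all. The longer palindrome TAAT, any 3 bases, ATTA was found in 0 of the 6 and in 0.487% of all. Among 98 promoters of 72 genes at least 2-fold higher in the high-score cells, TAATTA was found in 8 (8.16%, exact interval 3.59 to 15.4), and the palindrome in 0. These matches describe letters in a window and say nothing of binding.

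The score had no gap between the high-score cells and the rest. It ran from 0 to 2.41 with a median of 0.439 in the other kept cells and 1.22 in the high-score cells. The lowest 3 scores inside the top 10% were 1.05582, 1.05595 and 1.0561, and the highest 3 outside it were 1.0557, 1.05543 and 1.05519. Within 0.1 of that limit lay 645 cells, 274 of them high-score cells (33.3% of these). On this score, which chose the cells, they are the upper end of a continuous range.

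**Figure D1:**
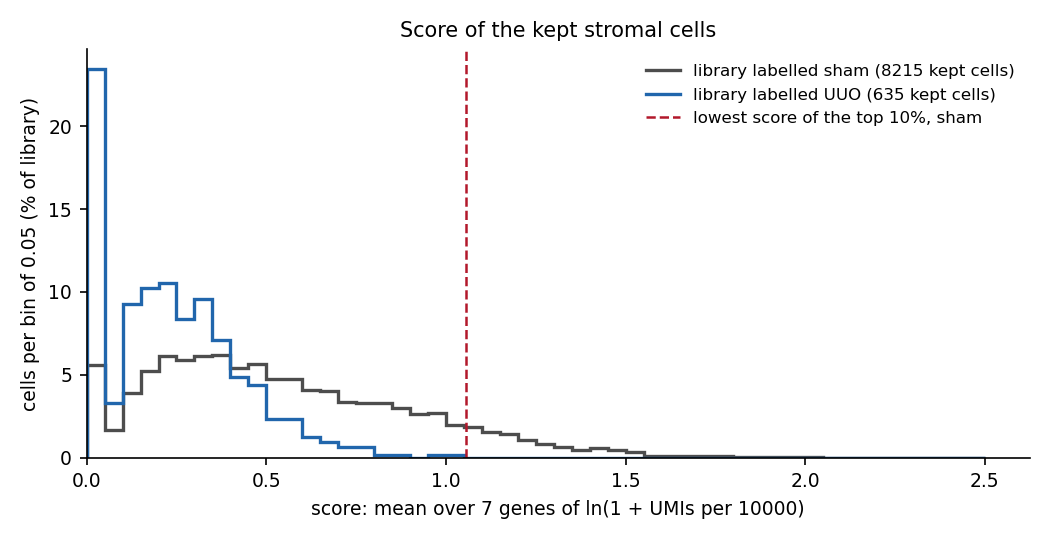
Distribution of the score (x axis, mean over 7 genes of ln(1 + UMIs per 10000)) in the kept cells of both libraries (y axis, % of the library per bin of 0.05). The dashed line is the lowest score of the top 10% in the library labelled sham, 1.05582, and the sham curve falls smoothly through it while the highest UUO cell is at 1.0038.

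The cells were chosen by the values of the 7 genes, which are given as a description. Alx1 and Smoc2 were detected in nearly all high-score cells, 98.9% and 99.3%, and the other 5 genes in fewer. Most of the other kept cells also had a UMI of Alx1 (62.8%) and of Smoc2 (84.0%). Alx1 had a median of 10.2 UMIs per 10000 in the high-score cells, with a highest value of 46.4, against 1.45 and 41.6 in the other kept cells. Smoc2 had a median of 21.2 and a highest value of 143 against 4.08 and 133. The ranges of both genes overlapped fully between the groups. In summed counts, Alx1 was at 1117 against 332 CPM and Smoc2 at 2317 against 765 CPM.

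Heph, Cntn1, Gpm6a and Ptger1 were found in a majority of the high-score cells and in a minority of the rest. Heph was at 249 against 56.4 CPM, with a UMI in 80.9% against 29.0% of cells. Cntn1 was at 169 against 17.2 CPM, in 66.9% against 11.5% of cells. Gpm6a was at 179 against 13.9 CPM, in 66.5% against 8.43% of cells. Ptger1 was at 121 against 28.9 CPM, in 63.4% against 18.7% of cells. At least 4 of the 7 genes were detected in 92.7% of the high-score cells and in 14.9% of the other kept cells.

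Nppc, the first gene of the set, was the least widespread. It was at 167 against 11.3 CPM but had a UMI in only 159 high-score cells (19.3%, exact interval 16.7 to 22.2), against 4.18% (3.73 to 4.66) of the rest. Among those 159 cells the median was 3 UMIs and the highest was 90. The 37 cells with at least 10 UMIs held 75.8% of the Nppc UMIs of the high-score cells, and 10 other kept cells also had at least 10. The gene named first in the set was thus detected in a minority of these cells. Alx1 and Smoc2 were detected in nearly all of them, and in most of the rest as well. The high-score cells held 64.6% of all Nppc UMIs of the kept cells while holding 10.9% of all UMIs.

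Depth and free RNA bear on these shares. The high-score cells had a median of 10140.5 UMIs and 3381 genes, the other kept cells 8609 and 3047. After each cell was thinned to 2000 UMIs (25 kept cells, shallower after rounding, were left out, and 821 high-score cells remained), Nppc was detected in 9.87% against 1.26% of cells, Gpm6a in 29.4% against 2.86% and Alx1 in 84.8% against 35.8%. Endothelial cells and macrophages of the same library, taken to lack these genes, served as the background: 164 cells with a median of 5112.5 UMIs and 220 cells with a median of 7612 UMIs. A UMI of Alx1 was found in 34.1% and 31.4% of them, of Smoc2 in 57.3% and 65.9%, of Gpm6a in 16.5% and 8.18% (32.4 and 13.8 CPM, and it was not shown that endothelial cells lack it), and of Nppc in 1.22% and 3.64%. Over all other kept cells, the share with a Gpm6a UMI was within the macrophage interval (4.92 to 12.6). The share with an Nppc UMI was within its macrophage interval (1.58 to 7.04), so neither share alone is read as expression. In summed counts Gpm6a was at 13.9 CPM in these cells against 13.8 CPM in macrophages. Summed Nppc was above background, at 11.3 CPM (10.5 to 12.1) against 4.27 CPM (1.95 to 8.11) in macrophages and 2.37 CPM (0.488 to 6.92) in endothelial cells. All 7 genes were detected more often in the high-score cells than in either background, an order that the choice of cells by these genes favours.

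**Figure D2:**
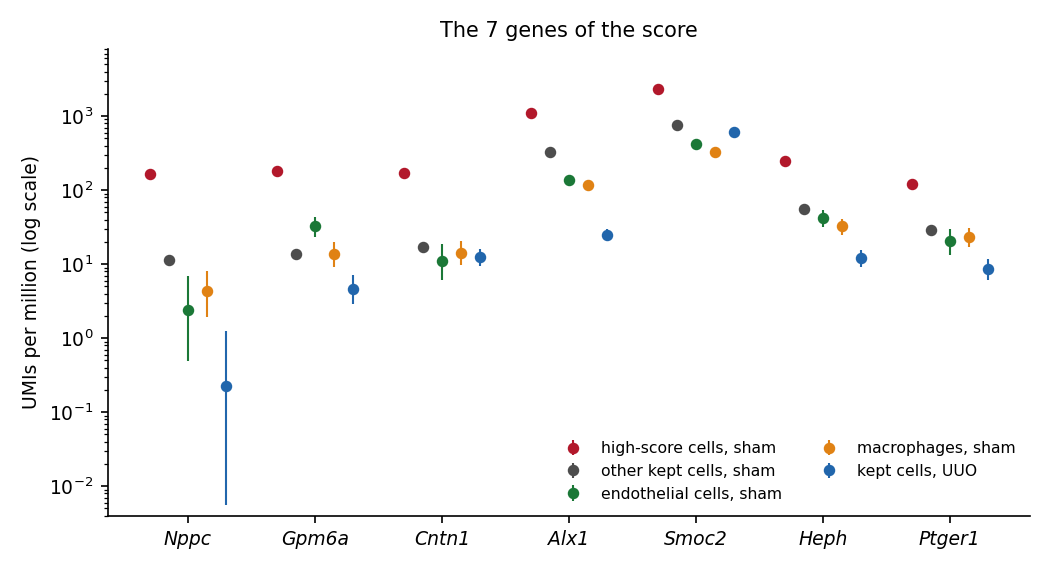
Summed level of the 7 genes of the score (y axis, CPM, log scale) in the high-score cells, the other kept cells, endothelial cells and macrophages of the library labelled sham and the kept cells of the library labelled UUO. Points are summed counts and bars exact Poisson 95% intervals. The high-score cells are the highest of the 5 groups for each gene. Their order against the other kept cells is fixed by the choice of cells, which also favours their order against the remaining groups.

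To see how far each gene went with the other 6, the top 10% was chosen again without it. The gene left out was then 1.84-fold (Smoc2, 1.81 to 1.88) to 6.32-fold (Gpm6a, 5.82 to 6.87) higher in the chosen cells. Nppc was 4.49-fold higher (4.10 to 4.92), at 92.7 against 20.6 CPM, and Alx1 2.47-fold higher (2.41 to 2.54), at 889 against 360 CPM. These values come from the genes of the score and are a description. Pair by pair, after thinning, Pearson correlations over 8190 kept cells ran from 0.00299 (Nppc and Heph) to 0.204. Over 821 high-score cells they ran from -0.157 to 0.126. Most thinned cells had no UMI of several of these genes, which lowers correlations. The high-score cells were also chosen by the mean of the same genes. Neither range therefore measures how strongly the genes go together. Dropping a gene kept between 76.9% and 93.7% of the high-score cells.

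The stromal genes used to keep cells were similar in both groups. Pdgfra was at 312 against 223 CPM and Pdgfrb at 252 against 295 CPM. Col1a1 was at 2557 against 2264 CPM, Col3a1 at 4601 against 3375 CPM, and the proteoglycan gene Dcn at 1867 against 2706 CPM. None of the 6 stromal filter genes was past 1.5-fold in either direction. All kept cells had to show 3 of these genes, so their presence in both groups is fixed by the filter.

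Outside the 7 genes, 8701 genes had at least 10 CPM in either group. Of these, 298 (3.42%) were higher by 1.5-fold or more in the high-score cells and 342 (3.93%) lower by as much, with 5 CPM added to both levels. At 2-fold, 101 (1.16%) were higher and 126 (1.45%) lower. The median log2 ratio of all genes tested was 0.04. Of the high-score cells 55.6%, and of the rest 56.4%, had Xist UMIs and no Y-linked UMIs, and 18.5% and 17.8% the reverse. The library therefore held RNA of both sexes, and each ratio could also be taken within the Xist-only and the Y-linked-only cells.

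Genes were named here at 50 CPM or more in either group, as the 15 highest and 10 lowest log2 ratios. Cartpt, the precursor of the CART neuropeptides, was at 78.1 against 9.86 CPM, 7.92-fold higher (7.08 to 8.86), but was detected in only 13.9% of the high-score cells and 3.67% of the rest. Coch, which encodes the matrix protein cochlin, was at 52.1 against 6.74 CPM, 7.72-fold higher (6.74 to 8.85). Efemp1, the gene of fibulin-3, was at 187 against 39.4 CPM, 4.74-fold higher (4.44 to 5.05), and was found in 68.4% against 19.2% of cells. The chemokine gene Cxcl12 was at 1581 against 400 CPM, 3.96-fold higher (3.87 to 4.04). Cxcl12 was widespread: its median was 12.2 UMIs per 10000 in the high-score cells against 1.93 in the rest, and 91.4% of the high-score cells were above the median of the rest. In endothelial cells and macrophages, a UMI of Cartpt was found in 3.05% and 0.909% of cells, of Efemp1 in 8.54% and 15.0% and of Cxcl12 in 42.1% and 47.7%. The Cartpt share of the rest was thus near that of endothelial cells, and the Efemp1 share above both. In sums, these 2 backgrounds had Cartpt at 3.95 and 1.42 CPM and Efemp1 at 13.4 and 21.8 CPM, below the rest for both genes. Dpt, the gene of the matrix protein dermatopontin, was at 575 against 179 CPM, 3.22-fold higher (3.11 to 3.33).

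Further genes among the 15 highest had varied roles. Ntf3, which encodes neurotrophin 3, was at 52.0 against 10.1 CPM, 5.13-fold higher (4.53 to 5.81). Bmp2, a ligand of the BMP family, was at 50.6 against 13.5 CPM, 3.76-fold higher (3.33 to 4.23). Syndig1, a membrane protein gene known from synapses, was at 90.1 against 27.7 CPM, and Thsd7a, a membrane protein gene with thrombospondin domains, at 122 against 27.3 CPM. Prom1, the gene of prominin 1 (CD133), was at 123 against 30.3 CPM, and Dio2, the deiodinase that activates thyroid hormone, at 92.8 against 24.3 CPM. The Src-family kinase gene Fyn was at 71.0 against 20.1 CPM and the membrane protein gene Tmem100 at 71.2 against 17.6 CPM. The noncoding genes 6530403H02Rik and Gm44691 were 4.66-fold and 3.34-fold higher. Within the Y-linked-only cells the log2 ratios of these 15 genes ran from 0.96 (Syndig1) to 2.77 (Cartpt). Within the Xist-only cells they ran from 1.36 (Gm44691) to 2.28 (Coch), so that all 15 were past 1.5-fold in both. The 15 were chosen over all cells, of which these are parts, so the split describes the same library and is no replication.

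Among the 10 lowest ratios, Spp1, the gene of osteopontin, was at 2034 against 14001 CPM, a ratio of 0.145 (0.143 to 0.148). Spp1 was detected in nearly every cell of both groups, and also in 100% of the endothelial cells, and its median was 14.7 against 23.9 UMIs per 10000, so that much of the difference in the sums lay in cells with very high levels among the rest, up to 4036 per 10000. Ptn, the heparin-binding growth factor pleiotrophin, was at 32.9 against 259 CPM, in 21% against 43.2% of cells and 25% of the endothelial cells. Cd34 was at 5.76 against 53.6 CPM, Clca3a1, which encodes a chloride channel accessory protein, at 8.51 against 65.6 CPM, and Pi16, the gene of peptidase inhibitor 16, at 19.0 against 103 CPM. Cpe, the gene of carboxypeptidase E, was at 21.2 against 93.6 CPM and Serpina1b, an alpha-1 antitrypsin gene that shares sequence with its copies, at 16.1 against 98.1 CPM.

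For Meg3 and Ccl21a the difference in the sums lay in a few other cells, and for Fabp4 in part. The noncoding gene Meg3 was at 6.01 against 52.3 CPM but was found in 3.89% against 5.45% of cells, and a cluster of 175 cells had 1616 CPM. The chemokine gene Ccl21a was at 7.51 against 50.9 CPM with a UMI in 12.5% against 12% of cells, and the fatty acid binding protein gene Fabp4 at 13.4 against 108 CPM in 12% against 22% of cells. Endothelial cells of the library had 2218 CPM of Ccl21a and 2198 CPM of Fabp4. Without the small clusters 6 and 8 to 13, most of them led by genes of other cell types, the log2 ratio of Ccl21a was -0.52 against -2.16 with all cells, and that of Fabp4 -1.14 against -2.62, still past 2-fold.

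**Figure D3:**
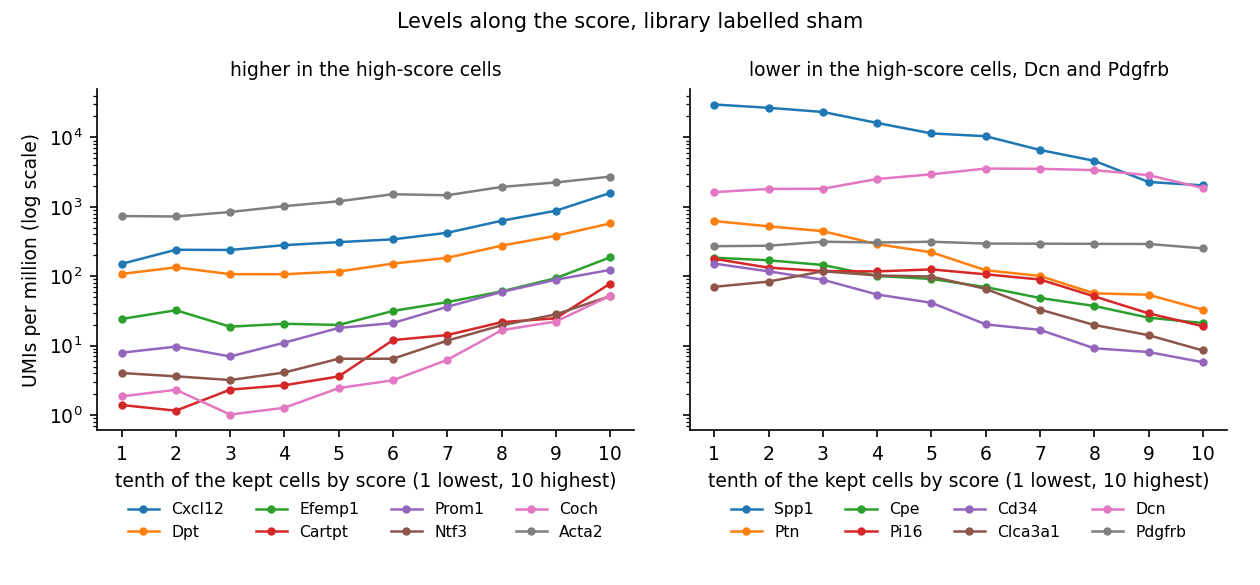
Levels of 16 genes (y axis, CPM, log scale) in 10 equal groups of the kept cells of the library labelled sham, ordered by score (x axis). Cxcl12 climbs from 151 CPM in the lowest group to 878 in the ninth and 1579 in the highest; Spp1 descends from 29751 to 2036; Dcn is highest, at 3553, in the sixth; Pdgfrb stays between 252 and 314.

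Many of these levels changed gradually along the score, and others rose mainly at its upper end. Cxcl12 was at 151 CPM in the lowest of 10 equal groups of cells by score, 340 in the sixth, 878 in the ninth and 1579 in the highest. Ptn was at 623 CPM in the lowest group, 122 in the sixth and 33.0 in the highest. Efemp1 stayed between 18.7 and 32.4 CPM over the lowest 6 groups and reached 187 CPM in the highest, so that its level was raised only at the upper end. Clca3a1 was highest in the third group, at 118 CPM, against 70.4 in the lowest and 8.52 in the highest. The median depth per group moved from 7739 UMIs in the lowest to 10158 in the highest, and its part in these levels along the score was not tested. With the other kept cells weighted to the UMI deciles of the high-score cells, 304 genes were higher and 322 lower at 1.5-fold. Without weights these counts were 298 and 342.

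The gene lists were read as counts past 1.5-fold, beside the 3.42% higher and 3.93% lower among all genes tested. Contractile genes had a median log2 ratio of 0.56, with 7 of 15 higher and 1 lower. Myl9, the regulatory light chain of myosin, was at 1418 against 664 CPM. Acta2, smooth muscle actin, was at 2722 against 1329 CPM. Tropomyosin Tpm1 was at 2585 against 1281 CPM, and Tpm2, Cnn2, Myh11 and Lmod1 were the other 4. Desmin, Des, was the lower one, at 123 against 207 CPM. Pericyte markers did not follow the contractile genes: 0 of 6 were higher and 2 lower, with Rgs5 at 21.3 against 39.4 CPM and the renin gene Ren1 at 44.4 against 76.3 CPM. Ren1 was nevertheless detected in 15.9% of the high-score cells against 7.28% of the rest, and in 7.19% against 2.25% after thinning, while cluster 11, of 33 other cells, was led by it. The summed pericyte markers reached at most 31.3 UMIs per 10000 in a high-score cell and 1591 in another kept cell, and their part in these levels was not tested.

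Elastic fibre genes split by member. Of 19 tested, 7 were higher and 2 lower, with a median of 0.38. Beside Efemp1, Ltbp1, a carrier of latent TGF-beta, was at 124 against 45.5 CPM. Elastin, Eln, was at 256 against 110 CPM, the microfibril gene Mfap5 at 881 against 399 CPM and fibrillin 1, Fbn1, at 463 against 244 CPM. The paralogs went the other way, with Ltbp2 at 10.1 against 50.9 CPM and Fbn2 at 2.13 against 14.5 CPM. Lysyl oxidase, Lox, was at 319 against 234 CPM, within 1.5-fold.

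Of 15 basement membrane genes 3 were higher and 0 lower (median 0.27), led by nidogen 2, Nid2, at 72.5 against 30.5 CPM, beside Col4a3 and Col18a1. Fibrillar collagens other than the filter genes, 4 tested, had none past 1.5-fold. Among 18 matricellular genes 2 were higher and 6 lower. Periostin, Postn, was at 162 against 62.3 CPM and Tgfbi at 238 against 123 CPM. Thrombospondins Thbs1 and Thbs2 were at 131 against 278 CPM and 39.3 against 105 CPM, and Ccn2, also called Ctgf, which encodes connective tissue growth factor, at 72.5 against 185 CPM. Of 13 proteoglycan genes 1 was higher, Spock3, at 23.5 against 4.36 CPM, and 3 were lower, with Gpc3 at 5.38 against 32.0 CPM.

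Hyaluronan genes were lower in 4 of 7 (median -0.73), among them the synthase Has1, at 63.3 against 117 CPM. Of 23 matrix proteases and inhibitors, 4 were higher and 5 lower, with Adam12 at 78.7 against 35.9 CPM and the inhibitor Timp1 at 243 against 741 CPM. The matrix program of the high-score cells was therefore mixed: some elastic fibre and basement membrane genes were higher while thrombospondins, Ccn2, Timp1 and Spp1 were lower.

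The C-type natriuretic peptide system was followed from ligand to receptors and breakdown. The signalling receptor gene Npr2 was at 10.9 against 5.14 CPM (2.12-fold, 1.65 to 2.69). With 87 UMIs in the high-score cells, Npr2 reached the limit of 10 CPM only there. The clearance receptor gene Npr3 was at 9.39 against 49.6 CPM (ratio 0.189, 0.149 to 0.238). Nppc chose the cells, so its own level is no part of this comparison, and in the library labelled UUO Npr3 was at 9.34 CPM with Nppc at 0.222 CPM. Prkg1, the cyclic GMP-dependent kinase, was at 24.8 against 15.6 CPM, within 1.5-fold once 5 CPM was added, and the phosphodiesterase gene Pde2a at 6.26 against 19.4 CPM. In all, 1 of 8 members of this list was higher, Npr2 near the limit, and 2 were lower.

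Prostaglandin genes beside Ptger1 showed lower transport and breakdown transcripts. Slco2a1, the prostaglandin transporter, was at 7.14 against 38.0 CPM and Hpgd, the enzyme that inactivates prostaglandins, at 6.26 against 39.4 CPM. The synthase gene Ptges was the 1 higher member, at 28.8 against 14.9 CPM. Ptger3 and Ptger4, further receptors for prostaglandin E2, were within 1.5-fold, and the cyclooxygenase genes Ptgs1 and Ptgs2 were at 23.4 against 33.6 CPM and 9.51 against 16.7 CPM. Of 12 members, 9 were within 1.5-fold.

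Iron genes beside Heph did not move one way, with 2 of 14 higher and 3 lower. The iron exporter gene Slc40a1, partner of hephaestin, was at 38.3 against 77.8 CPM, and ceruloplasmin, Cp, another ferroxidase, at 97.0 against 256 CPM. Transferrin, Trf, was at 96.8 against 52.6 CPM. The ferritin genes Fth1 and Ftl1 were within 1.5-fold.

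Neural adhesion and guidance genes, the list around Gpm6a and Cntn1, had 5 of 10 higher and 1 lower (median 0.46). The guidance receptor gene Robo1 was at 34.4 against 16.5 CPM, its ligand Slit3 at 55.5 against 28.6 CPM, Negr1 at 33.9 against 16.8 CPM and Ncam1 at 167 against 109 CPM. Netrin 1, Ntn1, was the fifth. Sema3d was lower, at 14.5 against 48.6 CPM. The 11 markers of Schwann cells and neurons summed to 33.8 against 23.6 CPM, and the 1 of them tested, the tubulin gene Tubb3, was higher past 1.5-fold. Sox10, Elavl4 and Th had no UMI in either group, Prph had none in the high-score cells, and 0 of 822 high-score cells had 3 or more of the markers. The part of such cells in the neural adhesion values was not tested.

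Among 23 stromal transcription factor genes tested beside Alx1, 4 were higher and 0 lower. Prrx2 and Prrx1, paired-related homeobox genes of mesenchyme, were 2.14-fold and 1.57-fold higher, the latter at 138 against 87.9 CPM. The nuclear receptor gene Nr2f1 was at 24.8 against 11.8 CPM. Foxf1, at 11.1 against 5.11 CPM, reached 10 CPM only in the high-score cells. Hox genes, which mark position along the body axis, had 3 of 17 higher and 1 lower. The higher ones were of paralog groups 10 and 11: Hoxa10 at 291 against 161 CPM, Hoxa11 at 67.5 against 38.5 CPM and Hoxd11 at 140 against 91.4 CPM. Hoxa7 was lower, at 9.14 against 17.2 CPM.

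Signalling lists held higher members in each family. Of 15 WNT genes 5 were higher and 0 lower: R-spondin 1, Rspo1, at 13.8 against 2.35 CPM, the secreted inhibitors Sfrp2 at 36.4 against 12.9 CPM and Dkk2 at 345 against 191 CPM, and the ligands Wnt6 and Wnt5a, the latter at 74.9 against 43.9 CPM. Of 15 vasoactive receptor genes 4 were higher and 1 lower, with the adrenergic receptor gene Adra1b at 56.3 against 19.1 CPM and the adenosine receptor gene Adora2b at 133 against 57.2 CPM. The vasopressin receptor gene Avpr1a was the lower one, at 3.13 against 13.2 CPM. Of 18 growth factor genes 4 were higher, with Fgf10 at 19.0 against 3.78 CPM, and 4 were lower, Igfbp6 among them. Of 27 BMP, activin and TGF-beta genes 4 were higher, with Gdf10 at 58.7 against 20.7 CPM beside Bmp2, and 5 lower, with the activin subunit gene Inhba at 96.9 against 194 CPM and Tgfb1 at 142 against 275 CPM.

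Lists of other fibroblast states and of early response genes held more lower than higher members. Of 10 genes linked to cortical or injured fibroblasts 7 were lower and 0 higher (median -0.95), with Nkd2, a WNT pathway modulator, at 45.3 against 178 CPM and the growth factor binding protein gene Igfbp3 at 139 against 256 CPM. Npr3 and Serpine2 of this list are also counted in other lists. Of 13 resting fibroblast genes 7 were lower and 3 higher: Cxcl12, Dpt and the WNT inhibitor gene Sfrp1, at 1452 against 773 CPM. C3 was at 7.39 against 40.7 CPM and Ly6a at 69.5 against 196 CPM. Of 18 immediate early genes, which respond to tissue dissociation, 6 were lower and 0 higher, with Atf3 at 62.1 against 125 CPM, and the other 12 were within 1.5-fold. Of 22 cytokine, chemokine and complement genes 7 were lower, with Il33 at 91.3 against 187 CPM, and 1 was higher, Cxcl5, found in only 7.54% of the high-score cells.

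**Figure D4:**
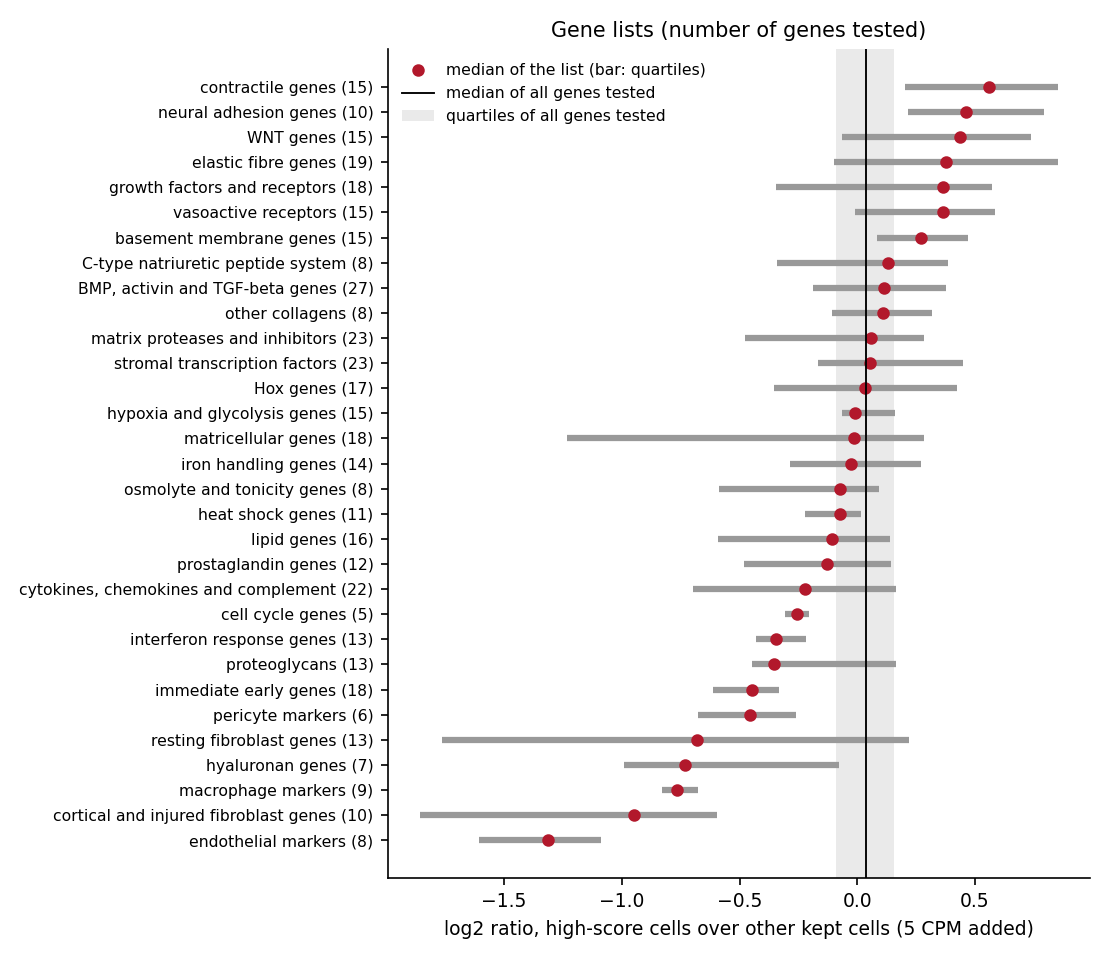
Median log2 ratio of each gene list with at least 5 genes tested (points; grey bars, quartiles; x axis, high-score cells over other kept cells with 5 CPM added). The number of genes tested is in brackets, and the shaded band is the quartiles of all genes tested; contractile genes lead at 0.56 and endothelial markers are lowest at -1.31.

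Markers of other cell types differed in direction. Endothelial markers were lower in 7 of 8 tested and macrophage markers in 7 of 9, with Plvap at 27.5 against 142 CPM and Cdh5 at 1.63 against 10.2 CPM. The filter allowed 1 of 5 genes of other cell types, and with none allowed the medians of these 2 lists were -0.22 and -0.04 in place of -1.31 and -0.77. The summed level of the 10 endothelial markers ran from 0 to 24.2 UMIs per 10000 in the high-score cells and from 0 to 183 in the rest, and that of the 10 macrophage markers from 0 to 77.7 and 0 to 1459. Proximal tubule markers summed to 1104 against 1072 CPM and mesothelial markers to 206 against 167 CPM, slightly above the rest, with the defining mesothelial genes Msln, Upk3b, Lrrn4 and Muc16 at 0 in the high-score cells. Cells marked as likely doublets were 5.47% of the high-score cells and 9.79% of the rest.

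Groups of cells found without the 7 genes placed most high-score cells together. Of 13 clusters, cluster 3 held 614 of the 822 (74.7%), which were 36.0% (33.7 to 38.3) of its 1706 cells. Its leading genes were Cartpt, Prom1, Syndig1, Thsd7a, Cxcl12 and Efemp1. Cluster 5 held 157 (19.1%), and its 959 cells were shallow, with a median of 3214 UMIs and pseudogenes in the lead. Cluster 1, led by Inhba, Wnt2 and Thy1, held 37. Clusters 2 and 4, led by globin genes with Clca3a1 and by Spp1 with Npr3, held 6 and 2 of their 1823 and 1068 cells. Among the 15 nearest neighbours of a high-score cell, 47.3% were high-score cells on average, against 5.75% around other kept cells and 10.0% among all.

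**Figure D5:**
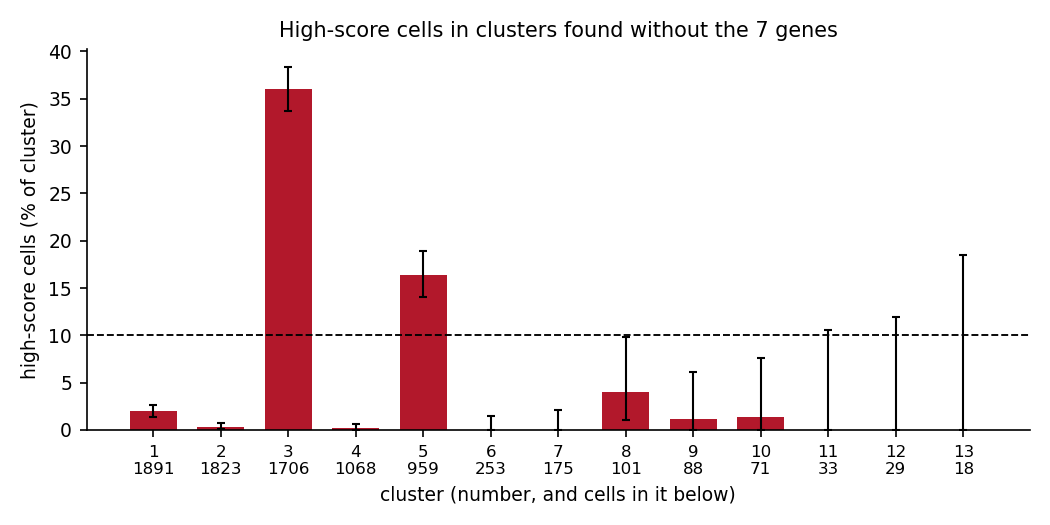
Share of high-score cells (y axis, % of the cluster; bars with exact 95% binomial intervals) in the 13 clusters of kept cells found without the 7 genes (x axis, with the number of cells). The dashed line is the share among all kept cells, 10.0%; clusters 3 and 5 are above it, at 36.0% and 16.4%.

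Cells of cluster 3 below the score limit resembled the high-score cells in part. Their Cxcl12 was at 856 CPM, between 1698 CPM in the high-score cells of that cluster and 291 CPM in the other cells of cluster 1. Efemp1 was at 93.3 against 180 CPM and Cartpt at 35.2 against 81.6 CPM. Prom1, at 97.4 against 116 CPM, and Acta2, at 2502 against 2788 CPM, were close. Ptn and Spp1 were low in both, at 44.5 against 30.6 CPM and 2652 against 1936 CPM. High-score cells of the shallow cluster 5 had a median of 3378 UMIs and 7.29% of UMIs from mitochondrial genes, against 11115 UMIs and 2.18% in those of cluster 3. Their Alx1 was at 1316 CPM and their Efemp1 at 353 CPM.

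High-score cells with an Nppc UMI were compared with those without. The 159 with one had a median of 12877 UMIs against 9547. Of 8741 genes tested outside the score, 29 (0.332%) were at least 2-fold higher in them and 16 (0.183%) at least 2-fold lower. The secreted WNT inhibitor gene Sfrp2 was at 107 against 13 CPM, the chemokine gene Cxcl5 at 104 against 19.0 CPM and Cartpt at 180 against 44.2 CPM. Ghrh, the gene of growth hormone-releasing hormone, was at 64.8 against 14.8 CPM, and Dio2 at 194 against 59.2 CPM. Crym, which encodes a thyroid hormone-binding crystallin, was the lowest, at 15.1 against 57.0 CPM, and the neuropeptide genes Cck and Penk were at 217 against 418 CPM and 65.8 against 128 CPM. Of the score genes, Gpm6a was at 176 against 179 CPM (ratio 0.982, 0.868 to 1.11) and Cntn1 at 222 against 151 CPM. The Nppc-detecting cells were thus a subset with more Cartpt, Ghrh and Dio2 transcripts and fewer of Crym and Cck.

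Other stromal cells chosen the same way were nearly separate. The top 10% by Npr3, Serpine2 and Nkd2 shared 4 of 822 cells (0.487% of each set), and the top 10% by Clca3a1 and Agtr1a shared 9 (1.09% of each set). Among all kept cells, 10.0% were high-score cells. In those 2 sets Alx1, which helped choose the high-score cells, was at 140 and 88.6 CPM against 1117 CPM. Cxcl12 was at 99.2 and 420 CPM against 1581 CPM, and Acta2 at 523 and 859 CPM against 2722 CPM. The cells of cluster 3 below the score limit were nearer, with Alx1 at 728 CPM, Cxcl12 at 856 CPM and Acta2 at 2502 CPM. Ptn was at 656 and 389 CPM against 32.9 CPM. Smoc2, at 261 and 659 CPM, was nearer to the other kept cells in the Clca3a1 and Agtr1a set.

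In the library labelled UUO, 635 of 1291 barcodes passed the same filter, with a median of 6347 UMIs. None reached the sham limit of the score (0 of 635), and the highest score was 1.0038. A rough upper limit of that share, taken as 3 cells of 635, is 0.472%, which is not an exact interval. With each cell thinned to 2000 UMIs, 1 of 631 UUO cells (0.158%, 0.00401 to 0.880) and 832 of 8190 sham cells (10.2%, 9.51 to 10.8) were at or above the limit of 0.947. The limit was set in the library labelled sham, which fixes its share near 10%, and the values describe 1 library each. All kept UUO cells together had 1 Nppc UMI (0.222 CPM, 0.00563 to 1.24), Alx1 at 24.9 CPM and Gpm6a at 4.67 CPM, each below the other kept cells of the library labelled sham. Smoc2, at 610 CPM, was close to the 765 CPM of those cells.

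Genes that went with the score in the library labelled sham were not all low in the library labelled UUO. Cxcl12 was at 2319 CPM there, above the 1581 CPM of the high-score cells, Efemp1 at 217 CPM and Tmem100 at 87.8 CPM. Dpt was at 384 CPM, between the 575 CPM of the high-score cells and the 179 CPM of the rest. Prom1, Syndig1 and Dio2 were at 3.56, 6.89 and 7.56 CPM, and Cartpt and Ghrh had no UMI. Of the lower genes, Pi16 was at 999 CPM and Cd34 at 227 CPM in the library labelled UUO, above both groups of sham cells, and Spp1 at 237 CPM was below both. The 2 libraries also shared 16 barcodes, 2 of them of high-score cells, and differed in share of Xist-only cells, 28.8% in the UUO library. What sets the 2 libraries apart cannot be told apart from the operation with 1 library each.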

How the data were processed

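Single-cell profiles of 2 libraries were analysed, grouped by the labels alone. The deposited values are expected counts of UMIs per cell and gene, unnormalised, made by the authors with alevin of Salmon 0.13.1 on mm10, per the submitters' processing notes. They covered 53698 gene entries and summed to 85359332 UMIs (labelled sham) and 6023072 (labelled UUO). Alevin splits UMIs between genes that share sequence. How the deposited barcodes were chosen is not stated.

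Barcodes were kept with at least 2000 UMIs, at most 10% mitochondrial UMIs, at least 3 of 6 stromal genes and at most 1 of 5 genes of other cell types. Expected counts were summed per group, rounded and scaled to CPM. Ratios carry exact conditional binomial intervals, shares exact Clopper-Pearson intervals, and calls use 5 CPM added. Clusters were Leiden clusters (leidenalg 0.10.2) on 2000 variable genes without the 7 genes, 30 components and 15 neighbours, at resolution 0.5. Doublets were scored by a simulation like Scrublet's and kept, except in an alternative. Calculations were tested on simulated data.

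Named genes were the 15 highest and 10 lowest log2 ratios at 50 CPM or more, without markers of other cell types, plus list members chosen for size or role. Members, lists and rules were chosen with earlier results of these data known. Of 746 listed symbols 2 were not matched.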

Additional observations from a re-analysis of the deposited data

How the results depend on the processing

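Counts and ratios were recomputed under 26 alternatives, 2 of them (leaving out the shallow cluster 5, and clusters 6 and 8 to 13) chosen after seeing the data. Of the 25 named genes outside the score, 24 kept their direction past 1.5-fold in all 26, the exception being Ccl21a (log2 ratio -0.52 without clusters 6 and 8 to 13), and no called value reversed. The counts of genes past a fold moved by more than 1.5 times under 5 alternatives. Against the lower 50% of cells by score they were 483 higher and 522 lower at 1.5-fold and 193 and 236 at 2-fold. With 20 CPM added they were 149, 164, 38 and 45. In the cells with Y-linked and no Xist UMIs, which are fewer, they were 523 and 586 at 1.5-fold, with 236 lower at 2-fold. At 2-fold, 67 were higher with the score taken after thinning, which kept 65.6% of the high-score cells, and 56 with the score as summed UMIs. The share of UUO cells at the limit was 0 and, thinned, 0.158%. The cause of these moves was not tested.

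With genes of at least 1 count tested, the medians of the WNT and neural adhesion lists were -0.01 and -0.01 in place of 0.44 and 0.46, since many near-absent genes then enter. The proteoglycan median was -0.35 and ran from -0.39 to 0.06. Within summed-UMI scoring Cartpt had a log2 ratio of 0.84 against 2.48, and Dio2 0.81 against 1.74. No paired analysis was possible because each group has 1 library. The depth of 1 library limits all values to these cells, and animals cannot be told apart within it.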

Other observations

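Further genes at least 2-fold higher in the high-score cells, named after their values were seen, included secreted peptides. Ghrh was at 27.3 against 1.49 CPM, 18.3-fold higher (14.4 to 23.5). Edn3, the gene of endothelin 3, was at 42.6 against 6.86 CPM. Receptor genes were higher too: Cntfr, the receptor of ciliary neurotrophic factor, at 96.3 against 38.1 CPM, Lifr, a receptor subunit of the same cytokine family, at 85.5 against 40.2 CPM, and Fgfr3 at 20.8 against 5.59 CPM. Ackr3, the scavenging receptor of the chemokine made from Cxcl12, was at 35.2 against 12.9 CPM.

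Other genes of this kind had varied roles. Alpl, tissue-nonspecific alkaline phosphatase, was at 35.3 against 5.97 CPM, and the transcription factor gene Tfap2a at 75.5 against 26.3 CPM. Slc38a2, an amino acid transporter gene that responds to osmotic stress, was at 469 against 227 CPM, while Sgk1, a kinase gene of salt handling, was at 29.4 against 80.0 CPM. Plppr1 was at 17.9 against 1.31 CPM and Epha4, an ephrin receptor gene, at 29.2 against 9.11 CPM.

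Further lists moved little or had lower members. Of 11 heat shock genes none was past 1.5-fold, and of 13 interferon response genes 1 was lower, the class I light chain gene B2m, at 1225 against 1917 CPM. Of 16 lipid genes 4 were lower and 0 higher, among them Rbp4, the gene of a retinol carrier of the blood, at 2.88 against 17.7 CPM. Of 15 hypoxia and glycolysis genes 1 was lower, Epas1, the gene of the hypoxia-inducible factor HIF-2 alpha, at 52.5 against 97.2 CPM. Of 8 osmolyte and tonicity genes 1 was higher and 2 lower, with the water channel gene Aqp1 at 3.25 against 17.6 CPM. Of 5 cell cycle genes 1 was higher, Rrm2, a ribonucleotide reductase subunit gene, at 30.5 against 14.7 CPM.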
